A study of Mus musculus with 13 samples.

Results

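Livers of mice carrying the N750F mutation of the retinoblastoma gene Rb1 were compared with livers of mice heterozygous for Rb1, all collected 24 hours after the liver carcinogen diethylnitrosamine (DEN). The members are the 5 arrays labelled as RB-N750F mutant with DEN and the 2 arrays labelled as heterozygous RB with DEN, 7 of the 13 arrays in all. Mice were 14 days old, and the DEN dose was 20 mg/kg. Heterozygous livers had 1 functional allele and 1 floxed allele together with Cre recombinase, which in this study is driven by the albumin promoter and acts in hepatocytes, so other liver cells keep both alleles. The characteristics field of the heterozygous arrays reads LOH, while their description says heterozygous RB, and the description was followed. The N750F label does not give the second allele or Cre status, so a further floxed allele in those livers cannot be told from it. The 3 groups used for comparison were wild type with DEN (2 arrays, floxed Rb1 without Cre), RB knockout with DEN (2 arrays, floxed Rb1 with Cre) and untreated wild type (2 arrays, given saline). No N750F or heterozygous liver without DEN was analysed here, so a difference present before DEN and a difference in the response to DEN cannot be told apart.

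The retinoblastoma protein holds cells out of S phase by binding E2F transcription factors and, through its LXCXE-binding cleft, by recruiting chromatin regulators to E2F-bound promoters. The N750F substitution lies in that cleft and is known to weaken binding of LXCXE proteins while leaving E2F binding largely in place. Deletion of exon 19 from the floxed allele removes part of the pocket domain and gives a null allele. DEN is turned into a DNA-alkylating agent by hepatocyte cytochromes P450, chiefly Cyp2e1, and the lesions activate p53 and halt the proliferation that is normal in the growing neonatal liver. Late cell cycle genes are controlled through CHR elements bound by the DREAM and MYB-MuvB complexes, and S-phase genes through E2F sites.

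Of 14953 genes tested, 245 passed an adjusted p of 0.05 with limma (1.64% of genes tested), 195 higher (1.3%) and 50 lower (0.334%) in N750F livers. Cell division genes stood out among the higher genes. The union of 13 cell division lists held 190 tested genes, of which 89 rose, 0 fell and 101 did not pass. In 137 of the 190 every N750F array lay above both heterozygous arrays, as in 6.43% of all genes tested. The lower genes held many enzymes of foreign-compound metabolism, and of the 138 tested genes in 6 such lists 0 rose, 20 fell and 118 did not pass. The median log2 difference over all genes tested was -0.01. Among called genes, 230 differed by more than 1 on the log2 scale and 88 by more than 2. All differences below are N750F minus heterozygous on the log2(intensity + 16) scale, with the standard error and the limma adjusted p over all genes tested. In whole liver, a change in the number of cells of a type and a change in RNA per cell cannot be told apart.

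**Figure D1:**
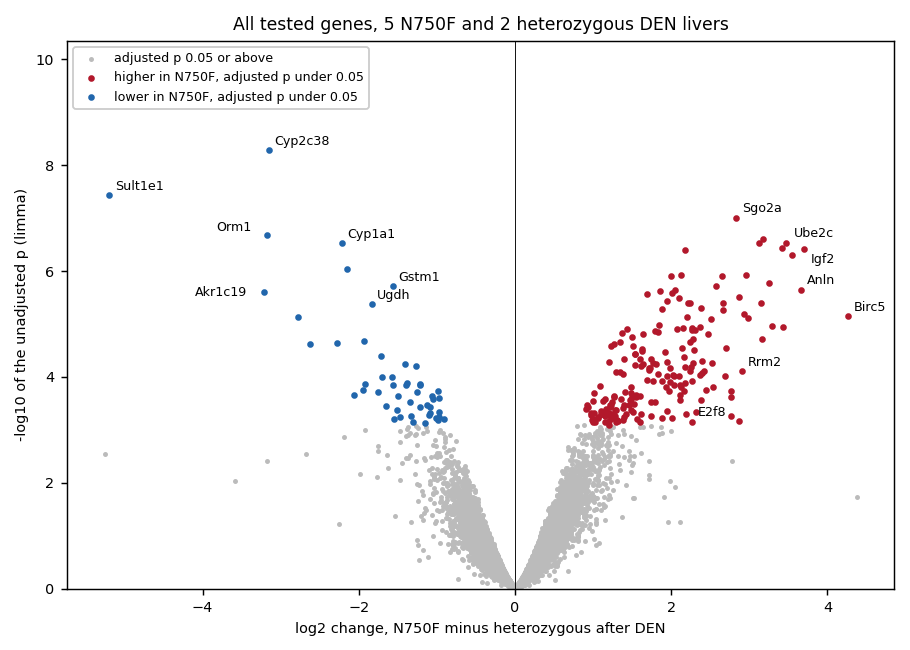
Log2 difference (N750F minus heterozygous, x axis) against the unadjusted limma p on a negative log10 axis for the 14953 genes tested, 1 point per gene, with called genes coloured. Called genes number 195 on the right and 50 on the left, with Birc5 at 4.27 and Sult1e1 at -5.19 as the outermost labelled genes.

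Promoter sequences with a CHR, E2F or antioxidant response element are printed below. They were picked after the values were seen, from called genes whose RefSeq promoter (GRCm38.p6) holds the motif. Each run below is the 120 bases before the first-listed start of the gene, 5′ to 3′ on the gene's strand, with the motif in capitals. The first 5 hold a CHR element (TTTGAA or TTCGAA on either strand), Rbl1 holds an E2F element (TTTGGCGC, TTTCGCGC, TTTCCCGC or TTTGGCGG), and Ugdh, which fell, holds the core of an antioxidant response element (TGACNNNGC). Ube2c lies at chr2:164769809-164769928 (+), Kif11 at chr19:37376262-37376381 (+), Top2a at chr11:99024190-99024309 (-), Ncapg at chr5:45669805-45669924 (+), E2f8 at chr7:48881597-48881716 (-), Rbl1 at chr2:157204535-157204654 (-) and Ugdh at chr5:65435843-65435962 (-).
Ube2c: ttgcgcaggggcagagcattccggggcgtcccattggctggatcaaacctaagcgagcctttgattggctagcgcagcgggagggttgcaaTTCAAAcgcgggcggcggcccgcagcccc
Kif11: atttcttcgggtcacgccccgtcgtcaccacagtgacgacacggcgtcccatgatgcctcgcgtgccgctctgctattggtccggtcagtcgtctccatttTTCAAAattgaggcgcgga
Top2a: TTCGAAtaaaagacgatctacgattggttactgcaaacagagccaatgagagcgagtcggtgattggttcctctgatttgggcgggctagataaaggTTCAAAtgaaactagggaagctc
Ncapg: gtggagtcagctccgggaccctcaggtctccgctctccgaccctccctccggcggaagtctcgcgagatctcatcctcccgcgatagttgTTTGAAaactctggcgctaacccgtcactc
E2f8: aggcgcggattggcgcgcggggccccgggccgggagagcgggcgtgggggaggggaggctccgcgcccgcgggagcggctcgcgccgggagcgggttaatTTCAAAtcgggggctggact
Rbl1: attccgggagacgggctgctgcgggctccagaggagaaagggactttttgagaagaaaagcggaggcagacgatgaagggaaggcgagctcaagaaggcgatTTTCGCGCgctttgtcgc
Ugdh: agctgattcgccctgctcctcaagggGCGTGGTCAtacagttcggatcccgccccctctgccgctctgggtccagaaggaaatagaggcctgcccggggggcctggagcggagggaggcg

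In the 5 CHR promoters an element lay within 30 bases of the start: 29 bases before it in Ube2c, 19 in Kif11, 23 in Top2a, 30 in Ncapg and 20 in E2f8. The E2F element of Rbl1 lay 18 bases before its start. The shares that follow were counted over a longer window of 300 bases, from 250 before to 50 after the first-listed start. A CHR element was present in 36.9% of the 160 higher genes with a promoter in the table and in 9.52% of the 42 lower genes. It was present in 15.6% of 11813 tested genes and in 19.4% of all 27025 promoters. An E2F element was present in 15% of higher, 0% of lower, 3.57% of tested and 2.42% of all promoters. CCAAT boxes, which often accompany CHR elements, were in 59.4% of higher, 50% of lower, 37.9% of tested and 37.9% of all promoters. The antioxidant core was in 16.9% of higher, 19% of lower, 14.2% of tested and 12.5% of all promoters, and GGCGG, which overlaps the E2F element TTTGGCGG, was in 84.4%, 52.4%, 70.7% and 49% of the same sets. All were searched on both strands. These shares describe letters in a window, and binding was not measured.

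The arrays came in 2 runs, named in the raw array names. N750F had 3 arrays in run 1 and 2 in run 2, and heterozygous had 1 in each, so the run entered the fit as a term. More genes, 2187, were called for the run than for genotype. By Xist and 3 Y-linked genes, both heterozygous livers and N750F array 1 were male and the other 4 N750F livers were female, so most of the contrast between sexes runs with genotype. Heterozygous array 4 had an Xist level of 8.05 beside Y-linked genes at 9.34, where the 4 other male arrays outside N750F had Xist at 5.64 to 6.17. Pearson correlations over genes were 0.906 to 0.981 among N750F arrays, 0.915 between the heterozygous arrays and 0.886 to 0.965 between the groups. The labels do not say that arrays came from separate animals, so p-values measure the spread between arrays.

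Rb1 itself did not pass the test. N750F arrays 1 to 5 read 8.23, 7.82, 8.43, 8.06 and 7.93, and heterozygous arrays 3 and 4 read 7.92 and 7.62 (0.31 ± 0.30 SE, adjusted p = 0.751). The ranges overlap. N750F is a point mutation, and no source used here places the Rb1 probes relative to exon 19, so the level checks neither label.

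Among RB and E2F genes, 3 of 11 tested members rose, 0 fell and 8 did not pass, with a list median of 0.20. The risers were the repressor E2Fs, E2f7 and E2f8, and Rbl1, which encodes the RB relative p107. E2f8, itself an E2F target that shuts off S-phase genes, read 6.72, 7.41, 8.10, 6.54 and 6.97 in N750F and 5.23 and 4.42 in heterozygous livers (2.27 ± 0.52, adjusted p = 0.0441). E2f7 read 7.43, 6.79, 6.85, 7.40 and 6.46 against 5.83 and 5.31 (1.40 ± 0.28, adjusted p = 0.0203). Rbl1 read 8.13, 8.39, 8.66, 8.02 and 7.58 against 7.03 and 6.58 (1.29 ± 0.29, adjusted p = 0.0389). In all 3 genes every N750F array lay above both heterozygous arrays. The members that did not pass had small differences: Rbl2, which encodes p130, at -0.20, the activator E2f3 at 0.13, the repressors E2f4, E2f5 and E2f6 at -0.19, 0.20 and -0.28, and the dimer partners Tfdp1 and Tfdp2 at 0.43 and 0.02. A second probe set of E2f3 gave a difference of 0.48. The activators E2f1 and E2f2 were too dim to test. For E2f8 the difference in N750F against wild type was 1.43 (adjusted p = 0.232), and in knockout against heterozygous 1.11 (adjusted p = 0.632).

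Of 20 tested genes for proteins that bind the LXCXE cleft or serve in its complexes, 16 had positive differences (median 0.19). In 6 of them every N750F array lay above both heterozygous arrays, as in 6.43% of all genes tested. By the test 3 rose and 0 fell. The 3 were chromatin modifiers that also serve replication: the maintenance DNA methyltransferase Dnmt1, its partner Uhrf1 and the histone H3 lysine methyltransferase Suv39h2. Dnmt1 read 9.81, 9.73, 10.07, 9.89 and 10.18 in N750F and 8.63 and 8.57 in heterozygous livers (1.34 ± 0.21, adjusted p = 0.0052). The N750F arrays lay close together and above both others. Uhrf1 differed by 1.48 ± 0.30 (adjusted p = 0.0205) and Suv39h2 by 1.23 ± 0.26 (adjusted p = 0.0291). The histone deacetylases did not pass, with Hdac1 at 0.48 (adjusted p = 0.544) and Hdac2 at 0.15 (adjusted p = 0.828). In the DREAM and MYB-MuvB list 1 of 7 members rose and 0 fell. It was Foxm1, the forkhead factor of late cell cycle genes, which read 7.69, 8.02, 8.05, 6.77 and 8.28 against 5.23 and 5.41 (2.42 ± 0.44, adjusted p = 0.0114). Both heterozygous Foxm1 values lay under 5.94 as well, and the difference ranged from 1.76 to 2.98 over the alternative fits.

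Genes of the G1/S step and of DNA synthesis had positive medians throughout. Of 15 cyclins, kinases and inhibitors of G1/S, 3 rose and 0 fell (median 0.54): Ccna2 and Ccne2, the S-phase cyclins A2 and E2, and Cks1b, a CDK adaptor. Ccna2 read 10.26, 10.41, 10.43, 10.08 and 10.30 against 7.42 and 7.60 (2.77 ± 0.56, adjusted p = 0.0231), with no overlap. Its standard error is wider than the 5 arrays show, since the knockout arrays, at 10.90 and 7.58, enter the same estimate of spread. For origin licensing and the replicative helicase, 5 of 19 rose and 0 fell (median 0.78), among them the MCM helicase subunits Mcm3 (1.38 ± 0.25, adjusted p = 0.0121), Mcm4 (1.94 ± 0.36, adjusted p = 0.0127) and Mcm7 (1.98 ± 0.38, adjusted p = 0.0157). Mcm7 read 7.54, 8.18, 8.41, 7.69 and 7.97 against 5.26 and 6.71, so the heterozygous arrays were themselves far apart. Array means over the 19 licensing genes were 7.47 to 7.89 in N750F and 6.81 and 6.87 in heterozygous livers.

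Of 20 genes for replicative polymerases, the sliding clamp and fork factors, 5 rose and 0 fell (median 1.03), and in 17 all N750F arrays lay above both heterozygous arrays, a pattern found in 6.43% of all genes tested. Pcna, the sliding clamp, read 10.62, 10.69, 10.95, 11.17 and 11.10 against 9.59 and 10.28 (1.01 ± 0.22, adjusted p = 0.0364). The primase subunit Prim1 differed by 1.88 ± 0.35 (adjusted p = 0.0148), and the checkpoint mediator Clspn by 2.24 ± 0.31 (adjusted p = 0.00184). Deoxynucleotide synthesis had 3 of 9 higher and 0 lower (median 1.19). Rrm2, the regulated subunit of ribonucleotide reductase, read 8.86, 9.19, 9.62, 7.99 and 8.20 against 6.20 and 5.34 (2.91 ± 0.53, adjusted p = 0.0114), and its partner Rrm1 differed by 1.95 ± 0.34 (adjusted p = 0.00909). The lowest N750F value of Rrm2 stood above the higher heterozygous value by more than 1 on the log2 scale. Replication-coupled chromatin assembly had 4 of 10 higher and 0 lower (median 0.93), with the CAF-1 subunit Chaf1a at 1.84 ± 0.27 (adjusted p = 0.00352) and the remodeller Hells at 2.28 ± 0.40 (adjusted p = 0.00935).

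Mitotic genes rose in large numbers. Of 17 mitotic cyclins and kinases 12 rose and 0 fell (median 2.13), of 12 spindle checkpoint and anaphase genes 5 rose and 0 fell (median 1.30), and of 21 centromere and kinetochore genes 13 rose and 0 fell (median 1.74). Of 19 spindle and kinesin genes 18 rose (median 2.24), and all 19 were without overlap. Of 9 cytokinesis genes 8 rose (median 2.26), again with all 9 without overlap. Over all genes tested 1.3% rose, and 6.43% had every N750F array above both heterozygous arrays. Heterozygous arrays had means of 5.34 and 5.11 over the cytokinesis genes and 5.91 and 5.80 over the spindle genes, below the dim-gene limit of 5.94 (genes with a mean under it were not tested), so the sizes of these medians depend on the offset. With an offset of 50 and of 1 in place of 16, the cytokinesis median was 1.61 and 2.89 and the spindle median 1.85 and 2.66. Array means over the 19 spindle genes were 7.97 to 8.39 in N750F, 5.91 and 5.80 in heterozygous, 6.30 and 6.24 in wild type with DEN, 7.30 and 6.92 in untreated and 8.56 and 7.01 in knockout livers. The N750F arrays thus lay above the untreated livers too, and the 2 knockout arrays disagreed.

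Ube2c, the E2 enzyme of the anaphase-promoting complex whose CHR promoter is printed above, read 9.38, 9.34, 9.26, 9.13 and 9.36 in N750F and 6.86 and 4.69 in heterozygous livers (3.47 ± 0.38, adjusted p = 0.000546). The 5 N750F values lay close together, and the heterozygous arrays were far apart. Ccnb2, or cyclin B2, read 8.45, 8.39, 8.26, 8.97 and 8.38 against 6.38 and 6.28 (2.18 ± 0.24, adjusted p = 0.000546). Plk1, the polo-like kinase of mitotic entry, read 8.04, 8.91, 8.05, 8.55 and 9.07 against 5.79 and 6.20 (2.58 ± 0.33, adjusted p = 0.00145). Both genes had close heterozygous arrays and no overlap. Cdk1 (1.72, adjusted p = 0.0104), Aurka (1.60 ± 0.27, adjusted p = 0.00836) and Aurkb (2.13 ± 0.26, adjusted p = 0.00108), the Aurora kinases, also rose. Wee1, the inhibitory kinase of Cdk1, did not pass at -0.21 (adjusted p = 0.815), nor did the phosphatase Cdc25b at -0.23 (adjusted p = 0.803).

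Birc5, survivin of the chromosomal passenger complex, read 8.34, 9.44, 8.89, 8.87 and 8.51 in N750F and 4.61 and 4.46 in heterozygous livers (4.27 ± 0.61, adjusted p = 0.00271). Both heterozygous values lay below the dim-gene limit, so the size depends on the offset, and it ranged from 3.07 to 5.73 over the alternatives. Anln, the cleavage-furrow scaffold anillin, read 8.46, 8.79, 8.71, 8.68 and 8.83 against 5.74 and 4.21 (3.66 ± 0.47, adjusted p = 0.00151). Kif11, the bipolar spindle kinesin, read 8.73, 8.93, 9.01, 9.13 and 8.97 against 6.41 and 4.62 (3.43 ± 0.51, adjusted p = 0.00357). In both Anln and Kif11 the N750F arrays were tight and heterozygous array 4 was the lower of its pair. Both heterozygous Anln values lay below the dim-gene limit, and the Anln difference ranged from 2.70 to 4.99 over the alternatives. Sgo2a, the shugoshin that protects centromeric cohesion, read 8.25, 8.37, 8.31, 7.83 and 8.44 against 5.40 and 5.39 (2.83 ± 0.28, adjusted p = 0.000486). Cenpk, a constitutive centromere protein, read 8.53, 8.32, 8.93, 9.36 and 8.85 against 5.56 and 5.25 (3.42 ± 0.38, adjusted p = 0.000546). These kinetochore genes had nearly equal heterozygous arrays, all below the dim-gene limit. Over the alternatives Sgo2a ranged from 2.14 to 3.39 and Cenpk from 2.68 to 4.01. Mki67, the Ki-67 proliferation antigen, read 9.99, 10.05, 9.66, 10.06 and 9.83 against 6.51 and 6.22 (3.55 ± 0.40, adjusted p = 0.00061).

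In the list of condensin and cohesin genes 7 of 13 rose and 0 fell (median 1.02). Condensin genes and topoisomerase II were among those that rose. Ncapg read 9.27, 9.07, 9.28, 9.42 and 9.21 against 6.42 and 6.17 (2.96 ± 0.36, adjusted p = 0.00108). Top2a read 10.26, 10.14, 10.32, 10.46 and 10.41 against 7.21 and 6.81 (3.29 ± 0.49, adjusted p = 0.00357). Both were without overlap and had close values within each group. A second Top2a probe set, with a mean of 5.27 below the dim-gene limit, gave a difference of only 0.32. The cohesin subunits did not pass: Smc1a stood at 0.60 (adjusted p = 0.176), Smc3 at 0.43 (adjusted p = 0.385) and Rad21 at 0.51 (adjusted p = 0.358). The difference between condensin and cohesin was not tested.

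**Figure D2:**
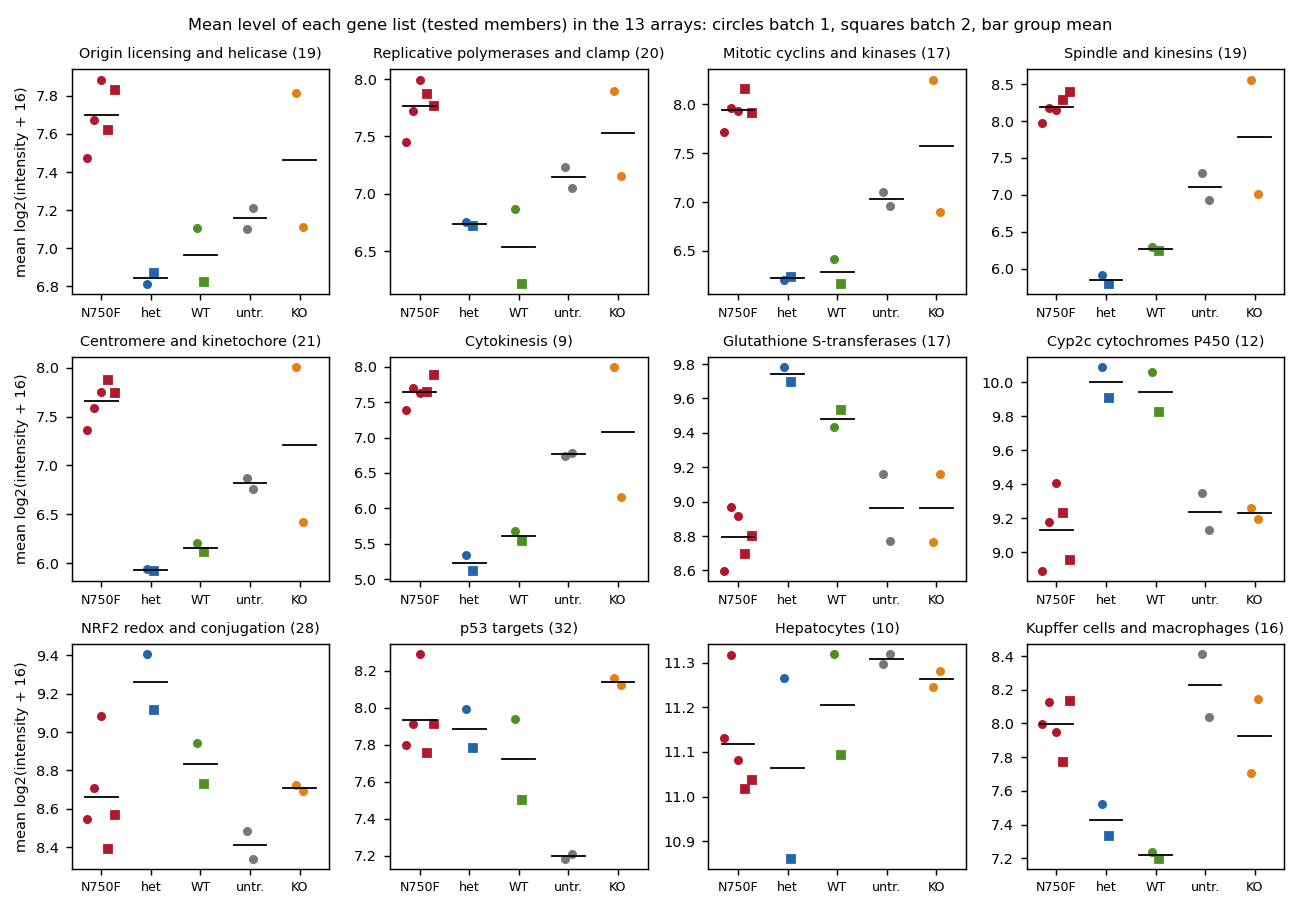
Mean log2 intensity over the tested members of 12 lists (y axis) in each of the 13 arrays by group (x axis), with circles for run 1, squares for run 2 and a bar at each group mean. For spindle genes the 5 N750F arrays sit at 7.97 to 8.39 and the heterozygous arrays at 5.91 and 5.80, while for p53 targets both groups cover the same levels.

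Checkpoint and recombination genes, many of them expressed in S phase, had 6 of 20 higher and 0 lower (median 0.85). They included Brca1 (1.99 ± 0.35, adjusted p = 0.0102), Brca2 (1.40 ± 0.31, adjusted p = 0.04), the helicase Brip1 (1.50 ± 0.31, adjusted p = 0.0231) and the checkpoint kinase Chek1. Chek1 read 8.08, 7.63, 8.15, 7.92 and 7.90 in N750F and 5.62 and 5.84 in heterozygous livers (2.21 ± 0.30, adjusted p = 0.00184), with no overlap. Both heterozygous Chek1 values lay below the dim-gene limit, and the difference ranged from 1.68 to 2.69 over the alternatives. Genes of mismatch, excision and direct alkylation repair, which act on the lesions DEN leaves, had 0 of 15 called (median -0.05). Of 32 p53 targets 0 were called (median 0.04). Array means of the p53 list were 7.76 to 8.29 in N750F, 7.99 and 7.78 in heterozygous, 7.94 and 7.50 in wild type with DEN and 7.19 and 7.21 in untreated livers. The N750F and heterozygous ranges overlap, and both lie above the untreated arrays.

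Ccng1 and Mdm2, both classical p53 targets in liver, are named after their values were seen. Ccng1 read 12.49, 12.36, 12.57, 12.55 and 12.52 in N750F and 12.69 and 12.54 in heterozygous livers (-0.12 ± 0.19, adjusted p = 0.86), beside 10.59 and 10.69 in untreated livers. Mdm2 differed by -0.23 ± 0.25 (adjusted p = 0.793). Cyp2e1, the main DEN-activating P450, also named after its values were seen, read 12.23, 12.71, 12.56, 12.25 and 11.71 against 12.78 and 12.01 (-0.16 ± 0.23, adjusted p = 0.844). For all 3 genes the arrays of the groups overlap. Apoptosis genes had 0 of 16 called and senescence genes 0 of 7.

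Glutathione S-transferases had more lower members than any other list. Of 17 glutathione S-transferases, which couple electrophiles to glutathione, 0 rose, 6 fell and 11 did not pass (median -0.92). Array means were 8.60 to 8.97 in N750F, 9.78 and 9.70 in heterozygous, 9.43 and 9.53 in wild type with DEN and 9.16 and 8.77 in untreated livers. Gstm1 read 11.28, 11.43, 11.53, 11.03 and 10.97 in N750F and 12.76 and 12.80 in heterozygous livers (-1.57 ± 0.20, adjusted p = 0.00145). Gstt3, a theta class member, read 7.89, 8.21, 8.73 and 8.28 in N750F arrays 1 to 4, somewhat higher in array 5, and 11.34 and 11.10 in heterozygous livers (-2.78 ± 0.40, adjusted p = 0.00274). Both were lower in every N750F array, including the male N750F array 1. Gstp1, the pi class member, fell by 1.38 (adjusted p = 0.0159), Gstm2 by 2.06 (adjusted p = 0.0219) and Gstm6 by 1.35 (adjusted p = 0.026). Gstm3 fell by 0.99 (adjusted p = 0.0195), and a second probe set of Gstm3 gave a larger difference of -1.69. Mu class genes are close in sequence, so their probes may read each other's transcripts.

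Of 28 genes for NRF2 targets and redox conjugation 5 fell and 0 rose (median -0.48). Ugdh, which makes UDP-glucuronic acid and whose promoter is printed above, read 8.61, 8.20, 9.01, 9.19 and 8.87 against 10.48 and 10.78 (-1.84 ± 0.25, adjusted p = 0.00184). Nqo1, the quinone reductase, read 6.28, 7.41, 7.67, 5.61 and 6.39 against 9.17 and 7.46 (-1.76 ± 0.35, adjusted p = 0.0201). Ugdh was without overlap, whereas N750F array 3 read above heterozygous array 4 for Nqo1, across runs. The carbonyl reductase Cbr1 fell by 1.31 (adjusted p = 0.0446).

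Of 12 Cyp2c cytochromes 3 fell and 0 rose (median -0.57). Cyp2c38 had the smallest adjusted p of all genes, with 5.74, 6.46, 6.64, 6.32 and 6.42 in N750F and 9.45 and 9.50 in heterozygous livers (-3.15 ± 0.25, adjusted p = 7.79e-05). Every N750F array lay far below both heterozygous arrays. Cyp2c50 fell by 2.63 (adjusted p = 0.00532) and Cyp2c39 by 1.58 (adjusted p = 0.0129). Of 48 other cytochromes P450, 4 fell and 0 rose (median -0.30). Cyp1a1, the target gene of the aryl hydrocarbon receptor, read 6.15, 5.74, 5.53, 5.20 and 5.64 against 7.72 and 8.00 (-2.22 ± 0.24, adjusted p = 0.000546). The wild type arrays with DEN were at 6.01 and 6.29, nearer the N750F arrays, and the difference of N750F from wild type did not pass at -0.51 (adjusted p = 0.351).

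Among 17 glucuronosyl and sulfotransferases 1 fell and 0 rose (median -0.51), and it had the largest decrease of all named genes. Sult1e1, the estrogen sulfotransferase, read 4.71, 4.35, 5.22, 5.29 and 4.60 in N750F and 9.84 and 10.22 in heterozygous livers (-5.19 ± 0.48, adjusted p = 0.000274). Every N750F value lay below the dim-gene limit of 5.94 set for gene means, so the size depends on the offset, and it ranged from -6.35 to -4.10 over the alternatives. The untreated arrays, at 4.43 and 4.77, were as low as N750F, and the wild type arrays with DEN, at 9.10 and 8.55, were high. Akr1c19, an aldo-keto reductase and the 1 lower gene among 18 in its list, read 5.36, 6.18, 6.61, 7.53 and 5.96 against 9.48 and 9.70 (-3.22 ± 0.42, adjusted p = 0.00156). Drug and bile transporters had 0 of 19 called, and of 13 nuclear receptors for foreign compounds 1 fell, Nr1i3, the constitutive androstane receptor (-1.51 ± 0.33, adjusted p = 0.0338).

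**Figure D3:**
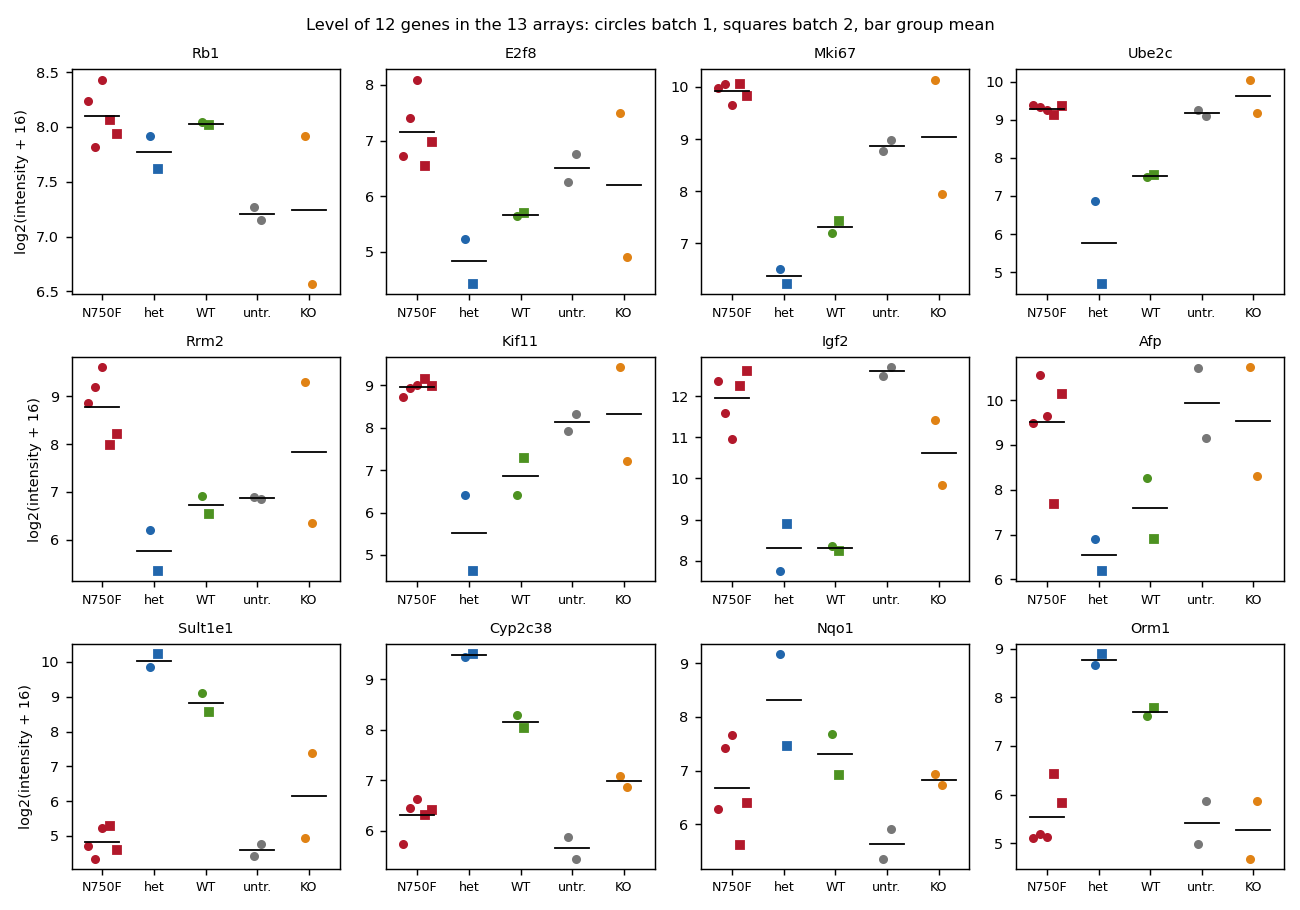
Log2 intensity (y axis) of 12 genes in each of the 13 arrays by group (x axis), circles for run 1 and squares for run 2, with a bar at each group mean. For Ube2c, Kif11 and Mki67 all 5 N750F arrays lie above both heterozygous arrays, for Sult1e1 and Cyp2c38 all lie below, and for Rb1 and Nqo1 the groups overlap.

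Imprinted genes of fetal growth had 4 of 16 higher and 0 lower (median 0.52). Igf2, the fetal growth factor, read 12.37, 11.60, 10.96, 12.24 and 12.60 in N750F and 7.75 and 8.89 in heterozygous livers (3.70 ± 0.41, adjusted p = 0.000546). Untreated livers read 12.49 and 12.71 and wild type livers with DEN 8.35 and 8.25, so N750F arrays 1, 4 and 5 lay close to the untreated arrays, arrays 2 and 3 below them, and all 5 above the wild type arrays with DEN. Mest differed by 2.01 ± 0.26 (adjusted p = 0.00156), Sgce by 1.09 ± 0.21 (adjusted p = 0.017) and Grb10, an adaptor that restrains insulin signalling, by 1.39 ± 0.32 (adjusted p = 0.0416). The imprinted Dlk1 and Meg3 did not pass, at -0.08 and 0.14. Of 13 oncofetal hepatocyte genes 2 rose and 0 fell (median 0.08). Afp, alpha-fetoprotein, read 9.49, 10.57, 9.64, 7.68 and 10.14 against 6.89 and 6.18 (2.87 ± 0.66, adjusted p = 0.0438), without overlap but with N750F array 4 well below the other 4.

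Clock genes moved in both directions. Of 15 members 1 rose, the activator Arntl (1.29 ± 0.28, adjusted p = 0.0338), and 2 fell, the repressors Nr1d2 (-1.05 ± 0.22, adjusted p = 0.0245) and Per3 (-1.27 ± 0.22, adjusted p = 0.00986). Arntl read 7.50, 7.92, 7.14, 7.62 and 7.28 in N750F and 6.20 and 6.18 in heterozygous livers, with no overlap. The hour of tissue collection was not given in the sources used here. Of 17 acute phase proteins 2 fell and 0 rose (median -0.05). Orm1, an orosomucoid, read 5.11, 5.19, 5.13, 6.43 and 5.82 against 8.66 and 8.89 (-3.18 ± 0.34, adjusted p = 0.000546), and Apcs fell by 0.97 (adjusted p = 0.0239). Orm1 belongs to a family of close copies, so its probes may read more than 1 member.

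In lipid metabolism, 3 of 16 fatty acid synthesis genes rose and 0 fell (median 0.06), all of them enzymes of long-chain elongation and desaturation. Elovl5 read 10.10, 10.65, 9.85, 10.36 and 10.22 against 8.91 and 8.55 (1.51 ± 0.25, adjusted p = 0.00573), Elovl2 differed by 1.22 ± 0.26 (adjusted p = 0.0288) and Fads2 by 1.27 ± 0.26 (adjusted p = 0.0225). Every Elovl5 value in N750F was above both heterozygous values. Fatty acid oxidation had 0 of 25 called, cholesterol synthesis 0 of 15 and gluconeogenesis and glycolysis 0 of 17. In the urea cycle and amino acid list 1 of 29 fell (median -0.36), the proline dehydrogenase Prodh (-1.65 ± 0.35, adjusted p = 0.0291). Pericentral markers had 1 of 17 lower, Oat, ornithine aminotransferase (-1.95 ± 0.39, adjusted p = 0.0194), with a list median of -0.55, and periportal markers had 1 of 13 lower with a median of 0.00. Plasma proteins had 0 of 32 called (median 0.17), and hepatocyte transcription factors 0 of 15. Interferon-stimulated genes had 0 of 23 called and immediate early genes 0 of 14.

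Sex-biased liver genes are given because the groups differ in sex. Of 9 male-biased genes 1 fell and 0 rose (median -0.40), and of 14 female-biased genes 4 fell and 0 rose (median -0.28). The female-biased median was -0.81 in run 1 alone, 0.09 in run 2 alone, -0.09 without heterozygous array 3 and -0.69 without heterozygous array 4, with 1 lower call without either array. The part of sex in the differences between the groups was not tested by these lists. With the mean of 3 Y-linked genes as a covariate, 54 genes were called, 34 higher and 20 lower. Ube2c (3.48, adjusted p = 0.0184), Igf2 (4.15, adjusted p = 0.0101), Cyp2c38 (-3.42, adjusted p = 0.00227) and Gstm1 (-1.64, adjusted p = 0.0309) were among them, whereas Kif11 (3.18, adjusted p = 0.0978), Rrm2 (2.83, adjusted p = 0.177) and E2f8 (1.73, adjusted p = 0.541) no longer passed.

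**Figure D4:**
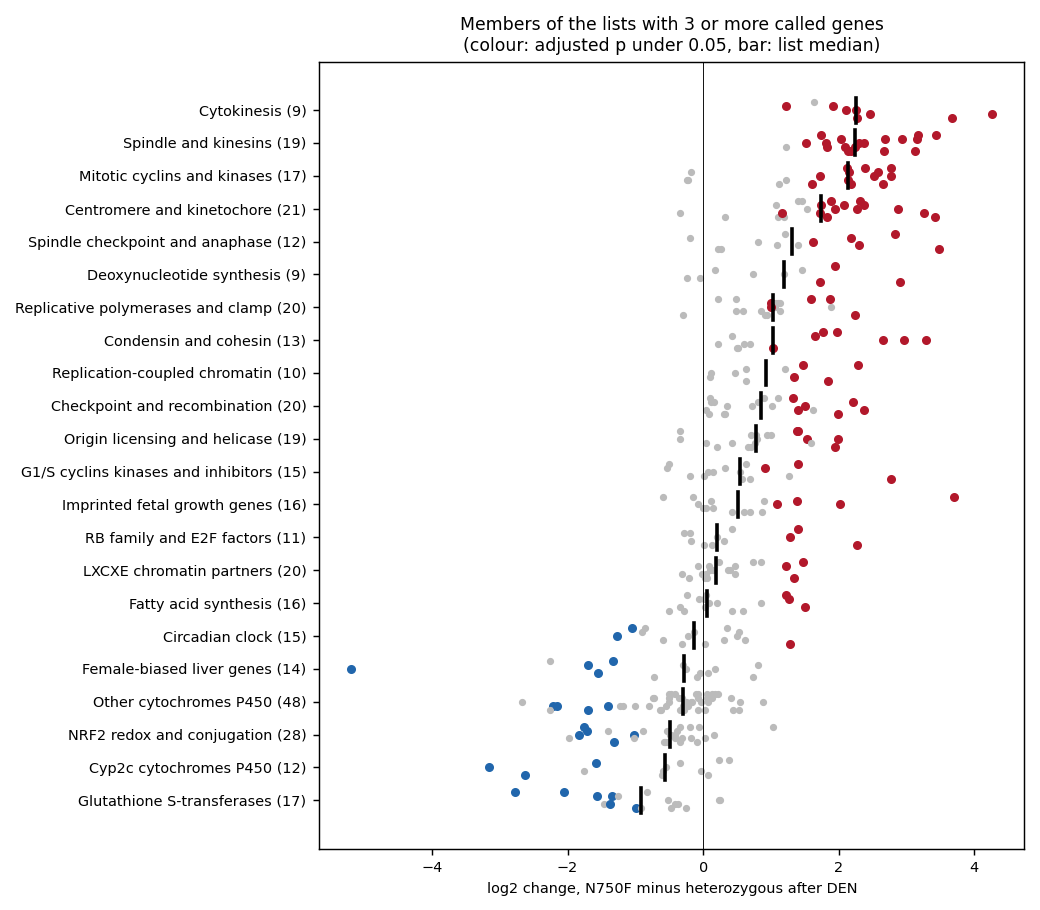
Log2 difference, N750F minus heterozygous, of each tested member (points) of the 22 lists with 3 or more called genes, with a bar at each list median. Spindle and cytokinesis genes have medians of 2.24 and 2.26, and glutathione S-transferases have the lowest median of the conjugation and P450 lists at -0.92.

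Markers of the liver's cell types were mostly unmoved by the test. Hepatocyte markers had 0 of 10 called (median 0.13), and their summed linear intensity was 38012 to 44329 in N750F and 31752 to 38054 in heterozygous livers. Macrophage markers had a positive median with few calls. In the Kupffer cell list 1 of 16 rose, Ctss, and the median was 0.66. The summed intensity of the 16 markers was 4139 to 7482 in N750F, 3134 to 4048 in heterozygous, 2786 to 3220 in wild type with DEN and 6314 to 8111 in untreated livers. The defining marker Clec4f differed by 0.84 (adjusted p = 0.191) and Adgre1 by 0.98 (adjusted p = 0.151), and none of the 16 was below the dim-gene limit. The part of macrophages in the rise of cell division genes was not tested.

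Endothelial markers had 1 of 15 higher, the scavenger receptor Stab1 (0.93 ± 0.20, adjusted p = 0.0309), with sums of 2924 to 4377 against 2502 to 3154, and stellate cell and fibroblast markers 1 of 15, the fibrillar collagen-associated Col14a1 (1.44 ± 0.22, adjusted p = 0.00369), with sums of 8690 to 11845 against 7182 to 9023. Cholangiocyte and progenitor markers had 1 of 5 higher, Prom1 (1.57 ± 0.36, adjusted p = 0.0413). Only 2 of the 5 differences were positive, and the list median was -0.25. Erythroid, neutrophil, platelet, lymphocyte, mesothelial, muscle, pancreas and adipocyte markers had 0 called. The adhesion molecule Vcam1 rose by the test (1.49 ± 0.23, adjusted p = 0.00449), but N750F array 4, at 7.48, read below heterozygous array 3, at 7.51, in the other run.

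Other genotypes were set beside these values, and since the comparisons share arrays no overlap of their calls is given. N750F against wild type with DEN had 212 genes called (1.42%), 169 higher (1.13%) and 43 lower (0.288%). Spindle and kinesin genes had 17 of 19 higher (median 1.90), mitotic cyclins and kinases 13 of 17 and glutathione S-transferases 3 of 17 lower. Without wild type array 4 the comparison called 2 genes, and without wild type array 3 it called 494. Heterozygous against wild type with DEN had 1 gene called (0.00669%), the hydroxysteroid dehydrogenase Akr1c18 at 5.01 (adjusted p = 0.00641), with 1029 genes at an unadjusted p below 0.05. It called 131 genes without wild type array 3 and 0 without wild type array 4. Heterozygous and wild type livers were both given DEN but differed in sex, since both wild type arrays were female.

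Knockout against the same heterozygous arrays had 45 genes called (0.301%), 33 higher (0.221%) and 12 lower (0.0803%), and 2 without heterozygous array 4 or 135 without knockout array 2. Spindle and kinesin genes had 3 of 19 higher (median 1.83). Ube2c differed by 3.59 (adjusted p = 0.00723), Cyp2c38 by -2.49 (adjusted p = 0.00689) and Orm1 by -3.19 (adjusted p = 0.00723) in knockout, beside 3.47, -3.15 and -3.18 in N750F. For Igf2 the knockout difference was 2.64 (adjusted p = 0.0539), beside 3.70 in N750F. Both knockout arrays were male and in run 1, as against 4 female N750F arrays of 5 and 2 N750F arrays in run 2. Sex thus runs with genotype in N750F against knockout, whereas knockout and heterozygous arrays were all male. The test of N750F against knockout itself called 0 genes with limma, with 1823 at an unadjusted p below 0.05 and a smallest adjusted p of 0.0739. This does not show that the genotypes act alike, since the knockout arrays differed widely, with Birc5 at 9.15 and 5.67, and 1 of them had a summed skeletal muscle marker intensity of 8682 where the 12 other arrays had at most 878. Without knockout array 1 the same test called 511 genes, and without knockout array 2 it called 4.

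The calls rest on 2 heterozygous arrays. Of the 195 higher genes 192 had every N750F array above both heterozygous arrays. Of the 50 lower genes 48 had every N750F array below. Over all genes tested this was the case for 6.43% and 5.59%. The genes were called on these same arrays, which fixes much of this separation in advance, so it is no support for the calls. Without heterozygous array 4, 18 genes were called (13 higher, 5 lower), including Ube2c, Mki67, Igf2, Cyp2c38 and Sult1e1, and 17 of the 18 were among the 245. Without heterozygous array 3, 149 were called (131 higher, 18 lower), of which 72 were among the 245. Within run 1 alone the spindle and kinesin median was 2.18 and within run 2 alone 2.53, against 2.24 in the full fit, and the glutathione S-transferase median was -0.81 and -1.14 against -0.92. In male arrays alone, with 1 N750F array, the medians were 2.18 and -0.83. The medians of these 2 lists without heterozygous array 4 were 2.16 and -0.84, and 2 of the 19 spindle genes and 0 of the 17 glutathione S-transferases then passed. Other lists moved more. Without that array the imprinted median went from 0.52 to 0.33, the clock median from -0.13 to -0.26 and the fatty acid synthesis median from 0.06 to 0.15, and in male arrays alone the deoxynucleotide synthesis median went from 1.19 to 0.52.

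**Figure D5:**
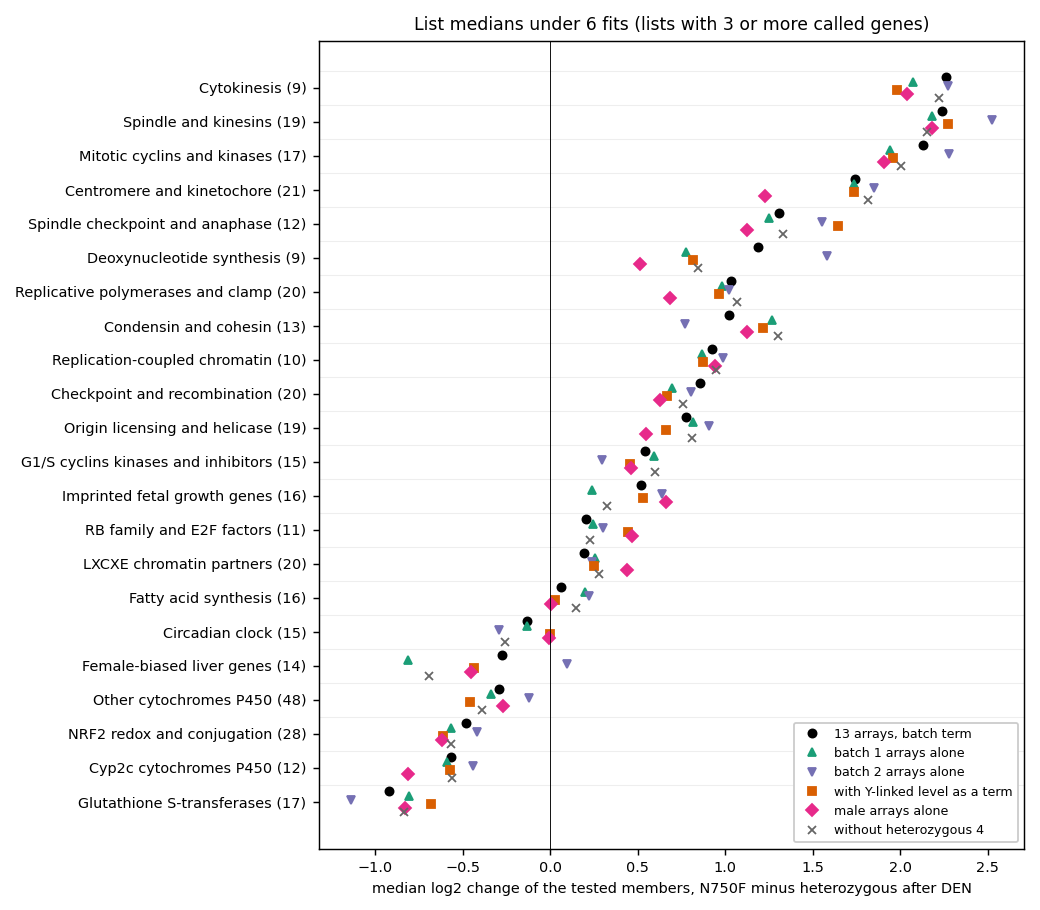
Median log2 difference of the 22 lists with 3 or more called genes (x axis, 1 row per list) in 6 fits: all arrays, run 1 alone, run 2 alone, with the Y-linked covariate, male arrays alone and without heterozygous array 4. In 21 of the 22 lists the 6 medians share a sign, and the exception is the female-biased list, at -0.28 in the full fit and 0.09 in run 2 alone.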

How the data were processed

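Per the labels' protocols, frozen livers gave total RNA, WT-Ovation Pico was used for amplification, and each of 13 Affymetrix arrays carried 1 sample. The deposited values are 1 linear intensity per probe set and array (35556 probe sets, 0.000427 to 17831). The submitters' processing notes name RMA and Affymetrix Expression Console 1.1 without a role for either, and the array medians differed (48.2 to 82.99), so intensities were quantile-normalized and log2(intensity + 16) taken. The probe set with the highest mean stood for each gene. GEO's platform table gave 1 symbol for 21789 probe sets, several for 1621 and none for 12146, and those with several were not used. Of the 21789 probe sets with 1 symbol, 21698 had a gene identifier found in RefSeq and took the symbol listed there. Genes dimmer on average than the 25th percentile (5.94) were not tested, leaving 14953 of 19938.

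One limma 3.58.1 model (R 4.3.3) held all 5 groups and the array run, with 7 residual degrees of freedom and Benjamini-Hochberg adjustment over all genes tested. Array number limits precision. The script was tested on simulated data. Named genes were Rb1, the RB and E2F list, up to 15 called genes per direction with the largest change, and up to 6 members of smallest p per list with calls, or 1 otherwise; any other gene was picked with its values in view. The 68 lists held 1326 entries, of which 157 had no probe set, 159 were dim and 1010 were tested. The members and lists were chosen with earlier results of these data known. Alternatives covered offset, normalization, filter, probe choice, batch, blocks, sex and left-out arrays.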

Additional observations from a re-analysis of the deposited data

Results flagged for a closer look

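In 6 of 221 values checked, 1 of the 5 N750F arrays stood apart from the other 4 by Dixon's criterion, which chance meets in about 1 in 20 groups. N750F array 4 read 8.97 for Ccnb2, where the other 4 read 8.26 to 8.45, and remained far above both heterozygous arrays. It read 7.61 for the organic anion transporter gene Slc22a26 (others 6.34 to 6.64). N750F array 1, the male array, read 9.15 for the manganese exporter gene Slc30a10 (others 8.31 to 8.55). As list means, N750F array 4 was at 6.99 for inflammatory NF-kB genes (others 7.41 to 7.56) and at 11.17 for heat shock genes (others 11.02 to 11.05), and N750F array 3 was at 7.32 for erythroid markers (others 7.46 to 7.48).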

How the results depend on the processing

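The 120 called genes named by the rule kept their direction in every alternative in which they were tested, out of 31; their choice as called genes fixes part of this. For N750F against heterozygous, 245 genes were called (195 higher, 50 lower). The count was 146 (121 and 25) with no batch term, 1 (1 and 0) in run 1 alone, 112 (97 and 15) in run 2 alone, 54 (34 and 20) with the Y-linked covariate, 2 (0 and 2) in male arrays alone and 349 (266 and 83) with array weights; fewer arrays enter the fits within a run or sex. Leaving out 1 array at a time gave 18 to 314 calls, 13 to 243 higher and 5 to 71 lower, lowest without heterozygous array 4 and highest without a knockout array. Of 4751 values of named genes under alternatives, 870 no longer passed and 25 newly passed. The difference changed sign in at least 1 alternative for 8 named genes, 0 of them called with all arrays; E2f3, for one, ranged from -0.13 to 0.53. With the replicate number as a block, 114 genes were called (91 and 23), 104 of them among the 245; N750F and heterozygous share 2 numbers, whose deviations correlated at 0.44 and 0.32, and which coincide with the runs. For N750F against wild type (212 called), the count was 104 with no batch term, 36 with the block and 2 to 494 with an array left out. For knockout against heterozygous (45 called), it was 15 with an offset of 1, 14 without normalization, 23 with no batch term, 0 with the block, 19 with the Y-linked covariate and 2 to 135 with an array left out. For N750F against knockout (0 called), it was 3 with an offset of 50 (Dusp1, Mt1 and Mt2), 1 with the block and 0 to 511 with an array left out. For heterozygous against wild type (1 called), it was 0 with the Y-linked covariate and 0 to 131 with an array left out. The cause of these changes was not tested. Probe sets near the background limit what the smallest levels can show.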

Other observations

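Of the 245 called genes, 103 were in none of the lists, 83 higher and 20 lower. The genes below were picked from them after their values were seen. Esco2, the acetyltransferase that locks cohesin, read 8.01, 7.91, 7.85, 8.62 and 7.98 in N750F and 4.98 and 5.77 in heterozygous livers (2.70 ± 0.44, adjusted p = 0.00611). Cdkn3, a Cdk-associated phosphatase, differed by 2.51 ± 0.36 (adjusted p = 0.00278). Neil3, a DNA glycosylase expressed in S phase, differed by 2.98 ± 0.43 (adjusted p = 0.00274), whereas the listed base excision and alkylation repair genes had no call.

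The protease inhibitor A2m rose (2.16 ± 0.43, adjusted p = 0.0195), with values of 5.86, 6.52, 6.34, 7.06 and 7.68 in N750F and 4.42 and 4.83 in heterozygous livers, and its relative Mug1 fell by 1.56 (adjusted p = 0.0165), with 9.77, 8.72, 9.29, 8.92 and 9.73 against 10.79 and 10.91. Pmch, the precursor of a hypothalamic neuropeptide, read 7.15 to 8.31 in N750F, 5.09 in heterozygous array 3 and slightly less in array 4 (2.76 ± 0.62, adjusted p = 0.0382). Baat, which conjugates bile acids, fell by 1.41 (adjusted p = 0.0095), with every N750F array below both heterozygous arrays.

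Cavin1, a caveolar coat gene, was the 1 gene called within run 1 alone (3.27, adjusted p = 0.0103). It read 8.62, 8.25, 8.18, 8.03 and 7.87 in N750F and 5.08 and 7.93 in heterozygous livers, and with both heterozygous arrays it did not pass (1.72 ± 0.50, adjusted p = 0.141).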
